A study of Rattus norvegicus with 6 samples.

Results

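The genes described here encode the enzymes with which a tissue changes foreign chemicals and reactive aldehydes. They were chosen by gene name: the cytosolic glutathione transferases (Gst), the microsomal glutathione transferases (Mgst), the cytochromes P450 (Cyp), and the aldehyde dehydrogenases (Aldh). The choice also took aldo-keto reductases (Akr), carboxylesterases (Ces), epoxide hydrolases (Ephx), flavin monooxygenases (Fmo), quinone reductases (Nqo), sulfotransferases (Sult) and UDP-glucuronosyltransferases (Ugt). This gave 102 of the 14405 protein-coding genes in the deposited tables. Membership used names only and no measured value, although the choice was made with earlier results of these data known.

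In the usual scheme of drug metabolism, P450s and flavin monooxygenases oxidise a compound, carboxylesterases and epoxide hydrolases split it with water, and transferases then attach glutathione, sulfate or glucuronic acid so that it can leave the cell. Aldehyde dehydrogenases and aldo-keto reductases oxidise or reduce the aldehydes that arise from lipid peroxidation, food and smoke. Several of these genes are textbook targets of the oxidative stress regulator NRF2 (Nfe2l2) or of the aryl hydrocarbon receptor (Ahr). Epithelia that face the outside world are known sites of their expression.

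The tissue was rat dorsal tongue epithelium, which the series text places at the circumvallate papilla, the taste structure at the back of the tongue. There were 3 control libraries, from rats without periodontitis, and 3 libraries from rats with chronic periodontitis, a lasting inflammation of the gums and the bone that holds the teeth. The labels and series text used here name no strain, age or sex of the rats and no way in which periodontitis arose. They also do not tie libraries to individual rats, so p-values reflect only how much these libraries differ within a group, and that spread may be technical.

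Values are FPKM, fragments scaled by transcript length and library total, which allows levels of different genes to be set side by side. Library sums of FPKM were 611713 to 660619, and depth is unknown. The stratified epithelium markers Krt4 and Krt13 had 2420 to 10200 FPKM, and taste markers such as Gnat3 (6.65 to 22.3 FPKM) were present, as were secretory genes of the von Ebner glands, serous glands that drain at this papilla. The 4 leading ones (Bpifb1, Vegp2, Lcn1 and Lipf) took 24.5% to 29.4% of the FPKM sum in the controls and 15.2%, 23.5% and 40.6% in periodontitis 1, 2 and 3. Periodontitis 1 and 3 therefore stood apart from the controls in opposite directions. Of 8 skeletal muscle genes tested, 7 were below all controls in all 3 periodontitis libraries (against 3.59% of all tested genes). In a bulk sample, fewer cells of a type and less RNA per cell cannot be told apart.

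Of the 102 members, 93 reached at least 1 FPKM in at least 3 libraries and were tested. The 9 others (Gstm3, Gsto2, Cyp2a1, Cyp2d1, Cyp2r1, Cyp4f5, Aldh1l1, Akr1c13 and Sult6b1) were low, with at most 2.11 FPKM in any library. No tested member passed the filter through the libraries of 1 group alone (0 of 93), and 77 were at 1 FPKM or more in all 6. Mean levels over the 6 libraries ran from 0.447 to 325 FPKM, 10 members had a mean of at least 100 FPKM, and the 10 most abundant made up 57.5% of the members' summed FPKM.

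The first comparison asked which of these enzyme genes differed between periodontitis and control tissue. None of the 93 passed (0 members, 0% of all tested genes) by limma with Benjamini-Hochberg adjustment over 13154 genes at a threshold of 0.05, and every member's adjusted p rounded to 1.0. At an unadjusted limma p under 0.05 there were 3 members, all lower in periodontitis (3.23% of members, against 1.73% of all tested genes), and 0 higher (0.38% of all tested genes). The median log2 fold change of the tested members was -0.02, against -0.03 for all tested genes. A higher mean log2 value in periodontitis was seen in 37 members (39.8%, against 42.6% of all tested genes). In 88 of the 93 members the log2 fold change lay between -0.5 and 0.5.

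In 4 members the periodontitis and control libraries did not overlap. Gstp1 was the 1 member that was higher (1.08% of members, against 1.97% of all tested genes). Gsta1, Aldh3a2 and Aldh1a2 were lower (3.23%, against 3.59% of all tested genes). These shares of members do not exceed those of all genes, so nothing is read from the counts, and the values follow gene by gene. Gstp1 overlapped between groups after quantile normalization and after scaling to Krt4 plus Krt13. Without periodontitis 3, 25 members were above all controls (27.2%, against 19.6% of all tested genes), and without periodontitis 2, 10 were below (11.1%, against 14.4%).

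Gstp1, the pi-class glutathione transferase and a textbook NRF2 target, lies on chromosome 1 (219291679 to 219294147). It had 78.5, 56.7 and 62.0 FPKM in controls 1 to 3 and 90.7, 82.0 and 87.0 FPKM in periodontitis 1 to 3. The lowest periodontitis value was close above the highest control. The means were 65.7 ± 11.4 and 86.6 ± 4.38 FPKM (SD, n = 3), and the log2 fold change was 0.40 ± 0.18 (SE, limma adjusted p = 1.0). With 1 library left out in turn it ranged from 0.31 to 0.54.

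Gsta1, an alpha-class transferase that conjugates lipid peroxidation products, lies on chromosome 9 (27368272 to 27452902). It had 18.0, 18.0 and 17.7 FPKM in the controls and 3.83, 13.7 and 11.0 FPKM in periodontitis 1 to 3. The controls were nearly equal and periodontitis 1 was by far the lowest library. The log2 fold change was -0.99 ± 0.39 (SE, limma adjusted p = 1.0), and it ranged from -1.31 to -0.51 with 1 library left out. Its locus overlaps that of Gsta3 on the other strand. Gsta3 had 1.6, 1.25 and 3.39 FPKM in controls and 1.11, 4.26 and 2.68 FPKM in the periodontitis libraries, and the sources used here do not say whether counting used strand.

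Aldh3a2, the fatty aldehyde dehydrogenase of the endoplasmic reticulum, had 18.2, 15.6 and 16.7 FPKM in controls and 12.1, 14.0 and 11.3 FPKM in periodontitis. All 3 periodontitis libraries were lower by a small margin, with a log2 fold change of -0.41 ± 0.16 (SE, limma adjusted p = 1.0). Aldh1a2, which makes retinoic acid from retinaldehyde and is known from mesenchyme, had 2.05, 2.11 and 2.15 FPKM in controls and 0.803, 1.46 and 0.904 FPKM in periodontitis. The log2 fold change was -0.61 ± 0.21 (SE, limma adjusted p = 1.0). All 6 fibroblast markers that were tested had a lower mean log2 value in periodontitis (57.4% of all tested genes had one), with a median log2 fold change of -0.66, and none was at 0. Only Sparc (1 of 6) was below all controls in all 3 periodontitis libraries. In periodontitis 2, Pdgfra (11.1 FPKM) was above all controls and Dcn and Lum were within their range. The markers' summed level was 1420 to 1500 FPKM in controls and 607, 1280 and 1040 FPKM in periodontitis 1 to 3. Their part in the Aldh1a2 values was not tested.

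**Figure D1:**
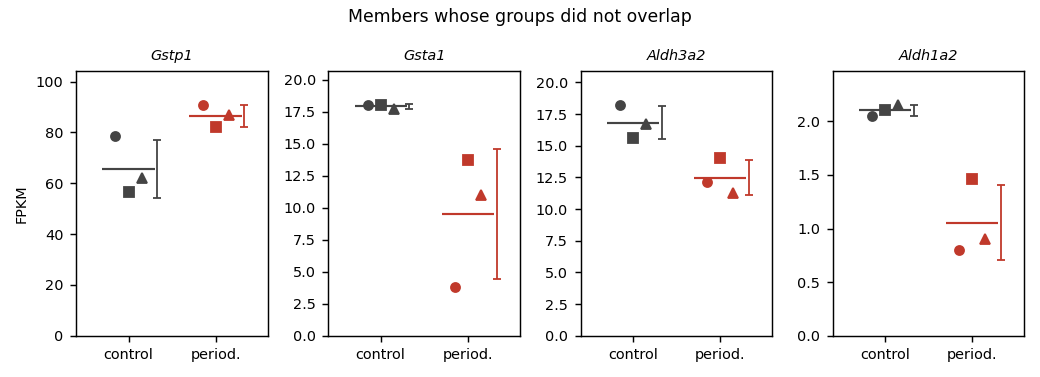
FPKM (y axis, from 0) of the 4 members whose groups did not overlap, in control (grey) and periodontitis (red) libraries. Circles, squares and triangles are replicates 1, 2 and 3, lines are means and bars are SD (n = 3). Gstp1 is higher in all 3 periodontitis libraries and Gsta1, Aldh3a2 and Aldh1a2 are lower, and none passed the test over all genes.

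The members differed far more between periodontitis libraries than between groups. Their summed level was 3092, 3261 and 2882 FPKM in controls 1 to 3 and 4521, 3472 and 2213 FPKM in periodontitis 1 to 3. As a share of the library's FPKM this was 0.482%, 0.499% and 0.458% in controls and 0.719%, 0.568% and 0.335% in periodontitis. Periodontitis 1 was the highest of the 6 libraries and periodontitis 3 the lowest, with all controls between them. With the 4 abundant gland genes taken out of the total, the shares were 0.643%, 0.661% and 0.649% in controls and 0.848%, 0.742% and 0.564% in periodontitis, in the same order.

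**Figure D2:**
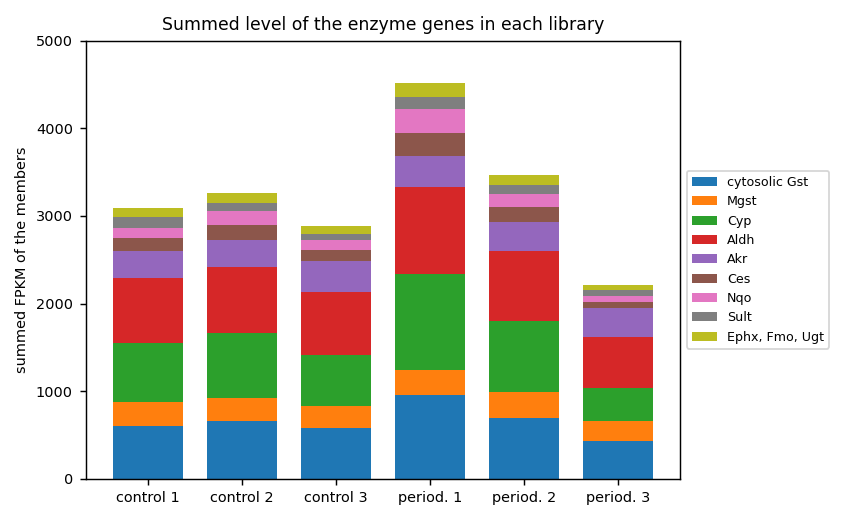
Summed FPKM of the 102 members (y axis, from 0) in each of the 6 libraries, with colours for gene families. The bar is tallest in periodontitis 1 (4521 FPKM) and shortest in periodontitis 3 (2213 FPKM), and the controls lie between 2882 and 3261 FPKM.

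Gene by gene, 39 of the 93 tested members were above all controls in periodontitis 1 and below all controls in periodontitis 3 (41.9%, against 24.5% of all tested genes). This pattern was chosen after the values were seen and is given as a description. Among members with a mean of at least 20 FPKM it was seen in 22 of 34 (64.7%, against 39.5% of all tested genes at that level), and among lower members in 17 of 59 (28.8%, against 19.1%). The reverse, periodontitis 1 below and periodontitis 3 above all controls, was seen in 12 members (12.9%, against 12.2% of all tested genes). Periodontitis 2 lay within the control range in 42 members (45.2%, against 48.4%).

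Markers of cornified and upper stratified epithelium moved with the first pattern. Of 8 such markers tested, 7 showed it (against 24.5% of all tested genes, and 39.5% of those with a mean of at least 20 FPKM). Their summed level was 10200 to 13400 FPKM in controls and 20000, 12700 and 6960 FPKM in periodontitis 1 to 3. Of 4 basal epithelial markers tested, 3 showed it, with 1200 to 1550 FPKM summed in controls and 2400, 1390 and 940 FPKM in periodontitis. Of 5 von Ebner gland markers tested, 4 showed the reverse (against 12.2% of all tested genes). The other, Obp2a, showed the first pattern, with 1.37 to 4.33 FPKM in controls and 8.6, 4.16 and 0.752 FPKM in periodontitis 1 to 3. No tested marker of these lists was at 0 in any library. When the libraries were scaled to equal FPKM without the 4 gland genes, the first pattern was seen in 32 of 91 members (35.2%, against 12.1% of all tested genes) and the reverse was seen in 20 (22%, against 26%). When they were scaled to equal Krt4 plus Krt13, a setting added after the data were seen, the first pattern was seen in 14 of 93 members (15.1%, against 2.03%) and the reverse in 34 (36.6%, against 65.3%). These 14 were Aldh3a1, Nqo1, Cyp2f4, Cyp2j4, Cyp4f39, the abundant Cyp3a9 row, Ces1d, Ces2g, Gsta2, Gsta5, Gstm1, Akr1c3, Ephx3 and Fmo2. Relative to the sum of the 2 keratins, each of them lay above all controls in periodontitis 1 and below all controls in periodontitis 3. That scaling follows Krt4 and Krt13 only. Krt4 had 6820 FPKM in periodontitis 1 and 2420 FPKM in periodontitis 3. Other markers of the list differed more between these libraries, such as Krt10 (642 and 76.7 FPKM) and Krt1 (302 and 39.0 FPKM). The part of the marker lists in the pattern was not tested.

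**Figure D3:**
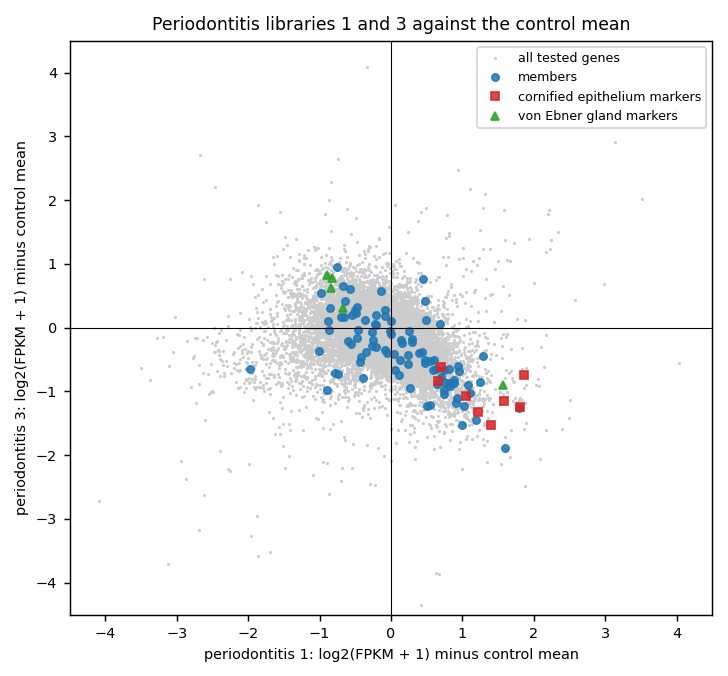
Difference of periodontitis 1 (x axis) and periodontitis 3 (y axis) from the control mean, on the log2(FPKM + 1) scale, for all 13154 tested genes (grey), the 93 members (blue), cornified epithelium markers (red) and von Ebner gland markers (green); 2 genes lie outside the axes. Many members lie at the lower right with the cornified markers, above the controls in periodontitis 1 and below them in periodontitis 3.

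Among the oxidising P450s, the 2 most abundant members were Cyp2f4 and Cyp2t1, neighbours on chromosome 1 (83933942 to 83947821 and 83965608 to 83969559). Cyp2f4, of a subfamily known for airway P450s that act on naphthalene, had 279, 276 and 221 FPKM in controls and 453, 339 and 140 FPKM in periodontitis 1 to 3. Cyp2t1 had 196, 245 and 171 FPKM in controls and 339, 241 and 112 FPKM in periodontitis. In both genes periodontitis 1 was highest and periodontitis 3 lowest, and their log2 fold changes were 0.12 and 0.05. The locus of Cyp2t1 overlaps that of Egln2 on the other strand.

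Cyp3a9, a steroid- and drug-oxidising P450, is listed in 2 rows on chromosome 12. The abundant row had 40.4, 44.9 and 27.8 FPKM in controls and 74.8, 46.9 and 12.2 FPKM in periodontitis. The low row had 1.53, 1.95 and 0.735 FPKM in controls. It had 2.34 FPKM in periodontitis 1 and 2.45 FPKM in periodontitis 2 and was listed at 0 in periodontitis 3. Reads of such copies may be divided between them, so each row is uncertain by itself. Cyp4f39, a fatty acid hydroxylase, had 21.2, 27.0 and 16.4 FPKM in controls and 45.7, 23.2 and 10.8 FPKM in periodontitis. The arachidonic acid epoxygenase Cyp2j4 (13.0 ± 2.75 and 16.9 ± 9.10 FPKM, SD, n = 3) had the same order. Cyp2s1 had 23.1, 26.6 and 20.4 FPKM in controls and 28.0, 30.0 and 11.5 FPKM in periodontitis, highest in periodontitis 2 and lowest in periodontitis 3.

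Cyp51, the lanosterol demethylase of cholesterol synthesis, had 51.3, 53.1 and 54.6 FPKM in controls and 86.6, 54.4 and 30.6 FPKM in periodontitis. Its controls agreed closely, while periodontitis 1 and 3 differed by 2.83-fold. Of the other tested genes in the sterol, bile acid, steroid and vitamin D list, Cyp20a1 had 8.86 to 13.9 FPKM, and Cyp7b1, Cyp27a1 and Cyp39a1 had 1.27 to 7.21 FPKM over the 6 libraries. Of the list of 17 such genes, 5 were tested, 0 passed, and all 5 had a lower mean log2 value in periodontitis (57.4% of all tested genes had one). Their median was -0.07, and it was 0.11 without periodontitis 3. Cyp20a1 and Cyp51 were nearly equal between groups, with log2 fold changes of -0.006 and -0.013. These data do not show whether Cyp20a1 acts on substrates of the kind the list is named for.

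Cyp1a1 and Cyp1b1, the classic P450 targets of the aryl hydrocarbon receptor, were near the filter. Cyp1a1 had 1.34, 3.58 and 1.03 FPKM in controls and 1.19, 0.562 and 1.14 FPKM in periodontitis. Its highest value was in control 2, and the groups overlapped (log2 fold change -0.52 ± 0.34, SE, limma adjusted p = 1.0). Cyp1b1 had 1.53 to 2.97 FPKM in controls and 1.01 to 2.49 FPKM in periodontitis. The abundant genes of that receptor's list were thus Aldh3a1 and Nqo1, not its P450s. Of the 6 tested genes in that list 0 passed, 3 had a higher mean (against 42.6% of all tested genes) and the median was 0.02. Tiparp, a feedback inhibitor of the receptor, had 5.59 to 6.46 FPKM in controls and 19.6, 7.67 and 4.03 FPKM in periodontitis 1 to 3.

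Aldh3a1, which oxidises aromatic and medium-chain aldehydes and is known as an abundant protein of the cornea, was the most abundant member (chromosome 10, 47490153 to 47499876). It had 298, 329 and 258 FPKM in controls and 559, 369 and 136 FPKM in periodontitis 1 to 3. The library values spanned 4.10-fold between periodontitis 1 and 3, and the log2 fold change between groups was 0.05 ± 0.48 (SE, limma adjusted p = 1.0). Its neighbour Aldh3a2 (47525493 to 47546345, on the opposite strand) is the gene described above that was lower in all 3 periodontitis libraries. The pair therefore differed in periodontitis 1, where Aldh3a1 was above all controls and Aldh3a2 below them.

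Of the 4 Aldh1a genes, Aldh1a1 and Aldh1a7 had the library order of Aldh3a1 in periodontitis. Aldh1a1 had 53.9, 60.7 and 59.7 FPKM in controls and 76.6, 56.2 and 43.7 FPKM in the periodontitis libraries, and Aldh1a7 had 111, 89.9 and 81.7 FPKM against 165, 100 and 59.2 FPKM. Aldh1a3 did not share that order, with 4.34, 2.92 and 4.51 FPKM in controls and 4.0, 4.66 and 2.66 FPKM in periodontitis, nor did Aldh1a2, described above. Aldh7a1, Aldh1l2 and Aldh18a1 had the reverse. Aldh7a1, which acts in lysine breakdown, had 68.8, 67.4 and 95.3 FPKM in controls and 51.0, 66.2 and 116 FPKM in periodontitis. Aldh1l2, of mitochondrial folate metabolism, had 13.9, 11.0 and 21.6 FPKM in controls and 8.38, 9.36 and 29.9 FPKM in the periodontitis libraries, and Aldh18a1, of proline synthesis, had 10.5 to 14.6 FPKM against 5.53, 9.77 and 17.7 FPKM. In these 3 genes periodontitis 3 was highest and periodontitis 1 lowest, as for the gland genes Lipf and Lcn1.

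Aldh2, the mitochondrial enzyme that clears acetaldehyde, had 68.9, 75.6 and 80.9 FPKM in controls and 40.5, 74.4 and 73.3 FPKM in periodontitis. Periodontitis 1 alone lay outside the control range. Of the 15 tested aldehyde dehydrogenases, 11 had a lower mean log2 value in periodontitis (57.4% of all tested genes had one). Their median was -0.06 and 0 passed. In the retinoid list (Aldh1a1, Aldh1a2, Aldh1a3 and the retinoic acid hydroxylases Cyp26a1 and Cyp26b1) all 5 tested genes had a lower mean log2 value (against 57.4% of all tested genes), with 0 past the threshold. Their median was -0.18, but 0.06 without periodontitis 3. When only means of 5 FPKM or more were tested, Aldh1a1 alone was left, with a log2 fold change of -0.02. Cyp26a1 had 1.36 to 3.34 FPKM in controls and 0.779 to 2.38 FPKM in periodontitis, with overlap.

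The aldo-keto reductases were led by Akr1a1, aldehyde reductase, the most even of the abundant members shown in the dot plots. It had 197, 197 and 237 FPKM in controls and 210, 187 and 227 FPKM in periodontitis. Akr1b10, which reduces retinal and lipid aldehydes, had 25.4, 30.6 and 14.8 FPKM in controls and 56.4, 43.6 and 16.4 FPKM in periodontitis. Periodontitis 1 and 2 were above all controls and periodontitis 3 was within their range, with a log2 fold change of 0.59 ± 0.46 (SE, limma adjusted p = 1.0), the highest among the tested members. It was 0.24 without periodontitis 1, 0.30 without control 3 and 1.10 without periodontitis 3. Its neighbour on chromosome 4, the aldose reductase gene Akr1b1, had 27.9 to 34.1 FPKM in controls and 21.9, 35.1 and 36.8 FPKM in periodontitis, lowest where Akr1b10 was highest.

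Members of the Akr1c group on chromosome 17 did not share 1 order. Akr1c3, a ketosteroid reductase, had 12.2, 13.3 and 11.2 FPKM in controls and 22.5, 12.4 and 5.96 FPKM in periodontitis. Akr1cl had 11.6, 16.1 and 16.8 FPKM in controls and 6.77, 12.2 and 11.2 FPKM in periodontitis, with a log2 fold change of -0.54 ± 0.26 (SE, limma adjusted p = 1.0). Akr1c19 had 2.70 to 4.22 FPKM in controls and 1.74, 4.03 and 1.76 FPKM in periodontitis. Over 11 tested aldo-keto reductases the median was -0.02, with 5 higher and 6 lower in the mean. In the whole aldehyde clearance list 11 genes were tested, 0 passed, 5 had a higher mean and the median was -0.02. Of all tested genes, 42.6% had a higher mean log2 value.

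**Figure D4:**
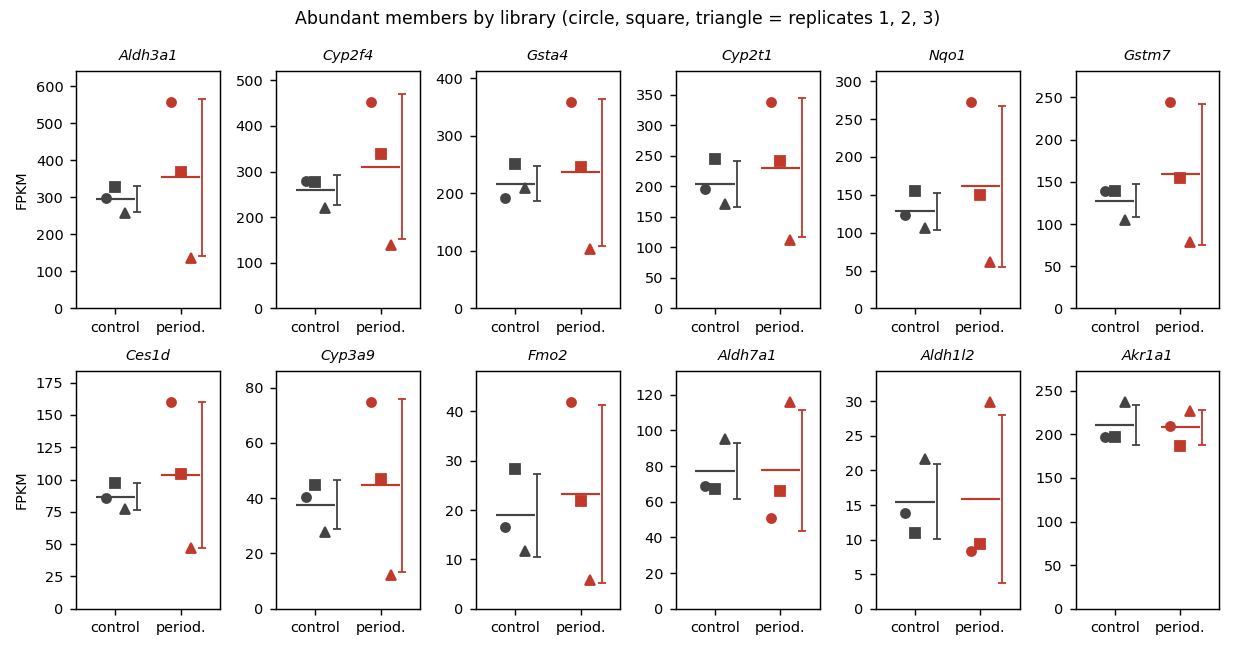
FPKM (y axis, from 0) of 12 members in control (grey) and periodontitis (red) libraries. Symbols are replicates, lines are means and bars are SD (n = 3), and the Cyp3a9 panel shows its abundant row. In Aldh3a1, Cyp2f4, Gsta4, Cyp2t1, Nqo1, Gstm7, Ces1d, Cyp3a9 and Fmo2 the circle (replicate 1) is highest and the triangle (replicate 3) lowest of the periodontitis libraries, Aldh7a1 and Aldh1l2 have the reverse, and Akr1a1 is even.

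Nqo1, the quinone reductase that is a standard NRF2 and aryl hydrocarbon receptor target, lies on chromosome 19 (38422164 to 38437180). It had 123, 155 and 106 FPKM in controls and 273, 150 and 61.6 FPKM in periodontitis 1 to 3. Periodontitis 1 was above and periodontitis 3 below all controls, and the log2 fold change was 0.11 ± 0.49 (SE, limma adjusted p = 1.0). Nqo2, its relative that uses a different cofactor, was low and had the reverse order, with 2.01, 2.61 and 1.5 FPKM in controls and 0.876, 2.11 and 3.73 FPKM in periodontitis.

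All 5 tested carboxylesterases, which hydrolyse ester drugs and lipids, were above all controls in periodontitis 1 and below them in periodontitis 3. Of all tested genes 24.5% showed this pattern, and 39.5% of those with a mean of at least 20 FPKM. Ces1d had 85.8, 97.5 and 77 FPKM in controls and 160, 104 and 47.1 FPKM in periodontitis. Ces2g had 31.0, 33.1 and 20.5 FPKM in controls and 57.0, 34.9 and 11.2 FPKM in periodontitis. Their median log2 fold change was 0.07, and 0 passed. The loci of Ces1d and Ces1f overlap on the same strand, so their values are not independent.

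The 3 epoxide hydrolases did not share 1 order of libraries. Ephx3, known from skin and upper digestive epithelium, had 21.1, 21.2 and 16.7 FPKM in controls and 47.9, 22.4 and 10.4 FPKM in periodontitis. Ephx1, the microsomal enzyme of drug metabolism, had 18.0 to 22.2 FPKM in controls and 20.2, 28.2 and 18.9 FPKM in periodontitis. Ephx2, which hydrolyses fatty acid epoxides, had 11.0 to 13.3 FPKM against 11.6, 11.6 and 8.91 FPKM. Of the fatty acid and eicosanoid oxidation list, which includes Ephx2, 9 genes were tested, 0 passed and the median was -0.03. A higher mean was seen in 4 (against 42.6% of all tested genes).

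Among flavin monooxygenases, Fmo2, the form known as abundant in lung, had the highest level. It had 16.6, 28.3 and 11.8 FPKM in controls and 41.9, 21.9 and 5.83 FPKM in periodontitis, a 7.18-fold difference between periodontitis 1 and 3. Periodontitis 1 was above and periodontitis 3 below all controls. All 7 flavin monooxygenases were tested, the median was -0.04 and 0 passed.

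**Figure D5:**
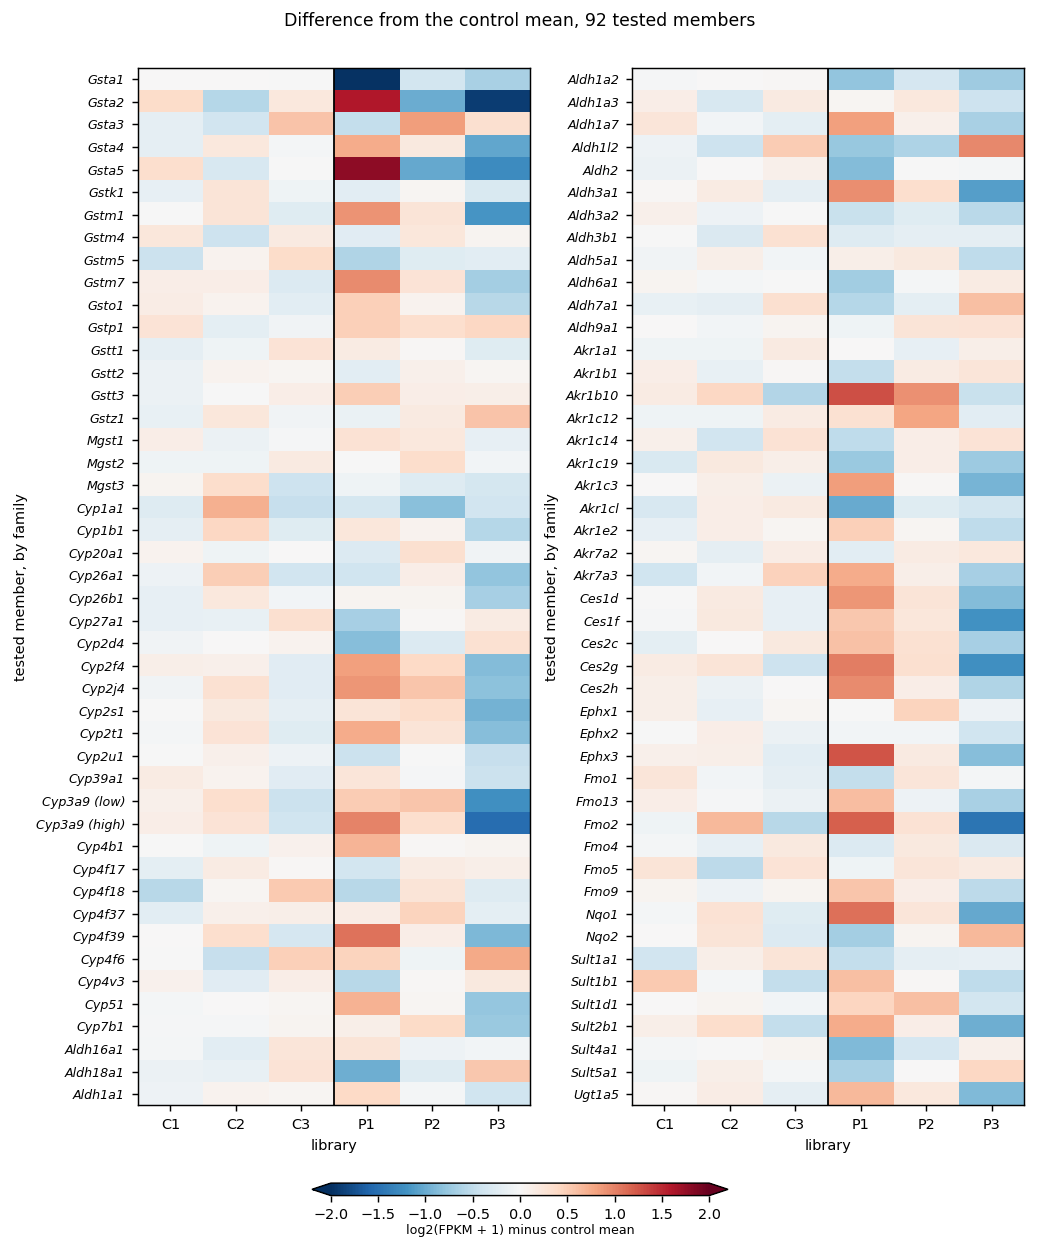
Difference of each library from the control mean on the log2(FPKM + 1) scale (colour, from -2 in blue to 2 in red) for 92 of the 93 tested members (rows, by family) in control (C) and periodontitis (P) libraries 1 to 3. The rows of Cyp3a9 are marked by level. Strong colours are mostly in P1 and P3 and often of opposite sign, while P2 is pale.

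Glutathione transferases of the alpha, mu and pi classes form the conjugating arm and hold the members whose control of expression is best known. Gsta4, which conjugates the lipid peroxidation product 4-hydroxynonenal, was the most abundant of them, with 191, 250 and 209 FPKM in controls and 359, 246 and 104 FPKM in periodontitis 1 to 3. Gstm7 had 139, 139 and 105 FPKM in controls and 245, 154 and 78.2 FPKM in the periodontitis libraries, and Gstm1 had 37.1, 44.3 and 31.1 FPKM against 70.3, 44.5 and 15.9 FPKM. The order of libraries was that of Aldh3a1 and Nqo1. Gstm7 overlaps Gstm3 on the same strand, and mu-class genes are near-identical in parts, so reads may be divided between them.

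The low alpha-class genes Gsta2 and Gsta5 varied most. Gsta5 had 4.63, 2.60 and 3.43 FPKM in controls and 14.4, 1.2 and 0.866 FPKM in periodontitis. Gsta2 had 3.78, 1.49 and 3.31 FPKM in controls. It had 10.3 FPKM in periodontitis 1 and 0.874 FPKM in periodontitis 2 and was listed at 0 in periodontitis 3. Both lie near Gsta4 on chromosome 8 and were high in periodontitis 1 only, whereas Gsta1 on chromosome 9 was lowest there. Alpha-class genes are also close copies of each other, and their single values are uncertain.

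Other transferases varied less between libraries. Gstt3 had 37.1, 39.8 and 44.0 FPKM in controls and 56.7, 44.4 and 43.6 FPKM in the periodontitis libraries, and Gstt2 had 11.3 to 13.0 FPKM against 10.5 to 13.3 FPKM. Mgst1 and Mgst2, membrane enzymes of glutathione conjugation, had 99.9 ± 8.91 and 102 ± 11.4 FPKM in controls and 109 ± 17.9 and 110 ± 18.0 FPKM in periodontitis (SD, n = 3). Mgst3 had 63.6 ± 16.8 and 53.0 ± 5.21 FPKM. Over all 16 tested cytosolic transferases 6 had a higher mean (against 42.6% of all tested genes), the median was -0.01 and 0 passed.

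Promoter sequences from RefSeq (GRCr8, 250 bases before to 50 after the annotated start) were matched by symbol for 83 of the 102 members. They were searched on both strands for the core antioxidant response element TGACNNNGC, bound by NRF2 with small Maf proteins, and for the core xenobiotic response element GCGTG, bound by the aryl hydrocarbon receptor with ARNT. Shown are Gstp1 and Gsta1, whose groups did not overlap, and Gsta4, Gstm7 and Nqo1, abundant members that were high in periodontitis 1 and low in periodontitis 3. Each is 5′ to 3′ on the strand of the gene, and capitals mark the matches to either motif.
Gstp1 (minus strand, chr1:210769656-210769955): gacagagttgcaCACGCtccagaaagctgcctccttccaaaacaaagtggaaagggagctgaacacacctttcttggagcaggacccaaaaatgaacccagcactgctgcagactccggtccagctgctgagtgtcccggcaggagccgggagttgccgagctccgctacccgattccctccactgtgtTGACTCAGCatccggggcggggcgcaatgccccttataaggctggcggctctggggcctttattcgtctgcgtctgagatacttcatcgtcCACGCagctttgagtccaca
Gsta1 (minus strand, chr9:31216483-31216782): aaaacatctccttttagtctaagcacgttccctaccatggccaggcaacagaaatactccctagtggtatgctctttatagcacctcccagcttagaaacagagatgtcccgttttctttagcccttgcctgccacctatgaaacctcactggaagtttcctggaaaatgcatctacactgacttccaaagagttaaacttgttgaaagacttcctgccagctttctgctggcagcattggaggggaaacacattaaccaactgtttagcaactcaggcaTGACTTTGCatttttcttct
Gsta4 (plus strand, chr8:87947015-87947314): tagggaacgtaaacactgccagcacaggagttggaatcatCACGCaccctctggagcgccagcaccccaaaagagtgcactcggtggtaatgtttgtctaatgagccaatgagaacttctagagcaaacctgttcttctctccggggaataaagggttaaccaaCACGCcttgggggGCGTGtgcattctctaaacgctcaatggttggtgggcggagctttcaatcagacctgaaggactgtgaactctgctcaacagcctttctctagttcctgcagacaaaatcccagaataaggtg
Gstm7 (minus strand, chr2:198260270-198260569): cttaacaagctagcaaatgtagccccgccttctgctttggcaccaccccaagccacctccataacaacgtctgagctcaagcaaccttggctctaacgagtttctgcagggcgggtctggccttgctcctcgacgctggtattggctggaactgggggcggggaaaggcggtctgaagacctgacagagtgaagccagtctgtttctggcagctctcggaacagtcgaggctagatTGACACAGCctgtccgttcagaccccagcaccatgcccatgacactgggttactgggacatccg
Nqo1 (minus strand, chr19:52220218-52220517): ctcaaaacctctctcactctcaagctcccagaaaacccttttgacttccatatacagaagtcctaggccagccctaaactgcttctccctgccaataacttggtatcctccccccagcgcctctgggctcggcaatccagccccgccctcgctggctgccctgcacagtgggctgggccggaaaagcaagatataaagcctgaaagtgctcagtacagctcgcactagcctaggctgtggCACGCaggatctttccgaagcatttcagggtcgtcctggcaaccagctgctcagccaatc

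Counted from 1 at the first printed base, the antioxidant core starts at base 190 in Gstp1, 281 in Gsta1 and 237 in Gstm7, all on the printed strand. The xenobiotic core starts at bases 13 and 281 in Gstp1, 41, 165 and 178 in Gsta4 and 241 in Nqo1, and of these the match at 178 is on the printed strand. No motif instances in these 5 windows overlap. Each of the 5 holds a match, but they are a selection. The window of Cyp2f4, which was more abundant than Gsta4 and had its library pattern, holds none, nor does that of Gstm1, with the same pattern. Bases further from the start were not searched. A missing match, such as that of the antioxidant core in Nqo1, therefore holds for these windows only. The antioxidant core was found in 15 of 83 member promoters (18.1%), against 12.2% of 27457 RefSeq promoters of the same length. It was found in 4 of 35 members with the first library pattern (11.4%) and in 11 of 39 other tested members (28.2%). The xenobiotic core was found in 34 of 83 (41%), against 31.1% of all promoters, and in 13 of 35 (37.1%) and 19 of 39 (48.7%) of the same groups. The 2 rows of Cyp3a9 share 1 promoter and are both counted. The matches describe letters in these windows and do not show binding.

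Sulfotransferases, which add sulfate to phenols and steroids, were led by Sult1b1. It had 84.0, 56.5 and 41.5 FPKM in controls and 89.2, 59.5 and 40.5 FPKM in periodontitis. The groups had nearly the same range. Sult2b1, the cholesterol sulfotransferase of stratified epithelium, had 21.4, 25.5 and 13.8 FPKM in controls and 33.5, 21.7 and 9.52 FPKM in periodontitis. Over 6 tested genes the median was -0.05, and 0 passed. The 1 glucuronosyltransferase row, Ugt1a5, had 15.1, 16.4 and 12.9 FPKM in controls and 23.7, 17.3 and 7.56 FPKM in periodontitis. It spans a long locus on chromosome 9 (95161157 to 95302822) that overlaps Dnajb3 on the other strand, and Ugt1a6 has no row. The sources used here do not say whether reads of other Ugt1a genes were counted in it.

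Genes that work with these enzymes were read from lists of the same fit. Nfe2l2 had 81.5, 84.9 and 61.6 FPKM in controls and 108, 82.0 and 42.3 FPKM in periodontitis 1 to 3, and Ahr had 16.4, 13.2 and 10.3 FPKM against 8.79, 15.4 and 8.01 FPKM. Nfe2l2 thus had the library order of Aldh3a1, whereas Ahr was low in both periodontitis 1 and 3. Por, the electron donor of microsomal P450s, had 34.3 to 38.1 FPKM in controls and 47.3, 42.6 and 28.0 FPKM in periodontitis. Of 10 tested regulators and partners 6 had a higher mean (against 42.6% of all tested genes), 0 passed and the median was 0.01.

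NRF2 targets outside the enzyme families showed a like spread of libraries. Gclc, the catalytic subunit of glutathione synthesis, had 27.1, 31.0 and 21.1 FPKM in controls and 53.5, 38.6 and 10.7 FPKM in periodontitis 1 to 3. Of 15 tested, 8 were above all controls in periodontitis 1 and below them in periodontitis 3 (against 24.5% of all tested genes). In 9 the mean was higher (against 42.6% of all tested genes), 0 passed and the median was 0.07. Txnrd1, with 16.1, 19.0 and 13.8 FPKM in controls and 13.2, 18.9 and 11.3 FPKM in the periodontitis libraries, and Osgin1, which was highest in periodontitis 3 (9.98 FPKM), did not share that order. Of 5 tested export pumps, which carry conjugates out of the cell, 4 had a higher mean (against 42.6% of all tested genes). Of these pumps 0 passed, and their median was 0.12. Abcc3 had 3.93 to 4.43 FPKM in controls and 7.05, 4.56 and 2.52 FPKM in periodontitis.

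Across the members with periodontitis 1 above and periodontitis 3 below all controls, the FPKM ratio of these 2 libraries had a median of 3.24 and ran from 1.38 (Mgst1) to 16.7 (Gsta5) over the 37 that were above 0 in both. The highest control exceeded the lowest by a median of 1.31-fold in the 39 genes. The pattern by which these genes were chosen requires periodontitis 1 and 3 to differ by more than the controls do. Nothing is therefore read from the order of the 2 medians. In the 12 members with the reverse order, periodontitis 3 exceeded periodontitis 1 by a median of 2.5-fold. The median difference of all tested members from the control mean in periodontitis 1, 2 and 3 was 0.12, 0.13 and -0.40 on the log2 scale, against -0.04, 0.10 and -0.15 for all tested genes. Without periodontitis 1 the members' median log2 fold change was -0.20, and without periodontitis 3 it was 0.17, so its sign depended on which of these libraries was included.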

How the data were processed

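RNA-seq was read from 6 deposited tables, 1 per library. Per the file headers the authors deposited FPKM for 14405 protein-coding genes. Per the submitters' processing notes, reads went through FastQC, cutadapt, HISAT2 and StringTie (versions not given). The notes list mm10, a mouse build, although the gene identifiers belong to rat. Gene positions are therefore printed as deposited, with their rat build unknown here.

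Groups came from the disease label. The 13154 genes that reached 1 FPKM in 3 or more libraries were tested on log2(FPKM + 1) with limma 3.58.1 in R 4.3.3, with a mean-variance trend and group as the only term, two-sided, adjusted over all tested genes. Log2 fold changes are periodontitis minus control and understate changes of low genes. The fit was tested on simulated data with independent noise for each gene. In the real data, periodontitis 1 and 3 shifted many genes together. The simulation therefore does not show what could be detected in these libraries. Depth is unknown. Members, gene lists and patterns were chosen with earlier results of these data known.

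Named genes were up to 5 of the highest in each family, the 15 with the smallest p, all without overlap, the 12 with the widest range, and those of the fixed functional lists. The pattern across periodontitis 1 and 3, and any other member named, was picked with the values in view. Alternatives were a replicate block, libraries left out, other filters, scalings, pseudocount, trend and threshold. Same-numbered libraries had deviations that correlated at 0.0902, 0.0346 and 0.461, which does not pair them. Values of 2 genes are not reported here, 1 of them a member that the heatmap leaves out.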

Additional observations from a re-analysis of the deposited data

How the results depend on the processing

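Of the members, 0 passed in every setting run, with the smallest adjusted p 0.591 (limma, without periodontitis 3). The replicate block (same-numbered libraries as pairs) gave 3 genes past the threshold over the whole table where there had been 0, none of them a member, and the numbers do not pair the libraries; leaving out 1 library gave 0 to 1 genes, and an adjusted p under 0.1 gave 1. The block and the libraries left out gave 0 members. The median log2 fold change of the members ran from -0.20 (without periodontitis 1) to 0.17 (without periodontitis 3) as libraries were left out. Members above all controls in periodontitis 1 and below in periodontitis 3 numbered 39, and 14 (15.1%, against 2.03% of all tested genes) when libraries were scaled to Krt4 plus Krt13, which was added after the data were seen. The reverse was seen in 7 members when only means of 5 FPKM or more were tested, a share close to the background as before (12.1%, against 12.2%). It was seen in 20 with the gland genes taken out (22%, against 26%) and 34 when scaled to the keratins (36.6%, against 65.3%). With 1 library left out the first count was 38 to 42 (42.2% to 46.2%, against 24.8% to 28.6%) and the reverse 12 to 14 (13.2% to 15.7%, against 12.3% to 17.4%), and neither is defined without periodontitis 1 or 3. Non-overlapping members numbered 1 to 25 above and 5 to 10 below as libraries were left out, where 2 libraries of a group make non-overlap easier (2.96% to 19.6% and 5.82% to 14.4% of all tested genes). They numbered 0 above under quantile normalization and under the keratin scaling. Without periodontitis 1 the list medians were -0.32 for aryl hydrocarbon receptor targets, -0.13 for NRF2 targets and -0.05 for export pumps, and without periodontitis 3 they were 0.39, 0.32 and 0.38. The fatty acid and eicosanoid median was 0.21 with means of 5 FPKM or more, a filter that dropped the lower genes of that list. The log2 fold change kept its sign in 28 of 93 members in all fits that tested them and changed it in 65. With unknown depth, no limit for low genes could be given.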
